A study of Homo sapiens with 4 samples.

Results

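The 10 genes described here make microRNAs or load them into vesicles. They are DROSHA, DGCR8, XPO5, DICER1, TARBP2, AGO1, AGO2, HNRNPA2B1, YBX1 and SYNCRIP, chosen by name for their known roles. All 10 symbols were found, 1 row each, among the 58174 named genes in the 59263 rows of the expression table. The series sequenced RNA from a pair of human pancreatic cancer cell lines, SW1990 and PANC-1, and asked what radiation does to their transcriptomes. Each line was left unirradiated (0 Gy) or received 10 Gy of X-rays, and each of the 4 combinations gave 1 library. Both lines were between passages 14 and 16. SW1990 was grown in 1640 medium and PANC-1 in DMEM, each with fetal bovine serum, so line and medium cannot be told apart. The sources used here do not give the time between irradiation and RNA collection.

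With 1 library per line and treatment there was no replicate error for any of the paired comparisons. The intervals given below are exact 95% binomial (Clopper-Pearson) intervals of the read counts. They cover counting error only, and treat the reads as independent. Reads without molecular identifiers are not independent molecules, so the intervals can be too narrow even for that error. Reads assigned to named genes numbered 17851815 in unirradiated SW1990, 18305682 in irradiated SW1990, 23323266 in unirradiated PANC-1 and 20026595 in irradiated PANC-1. The 10 genes together took 0.269%, 0.249%, 0.255% and 0.237% of these reads in the same order. Counts of the 10 ran from 353 for TARBP2 in irradiated SW1990 to 17275 for HNRNPA2B1 in unirradiated PANC-1.

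A microRNA is cut from a long primary transcript in the nucleus by the Microprocessor, in which the nuclease DROSHA works with the RNA-binding protein DGCR8. Exportin-5, the product of XPO5, carries the resulting hairpin to the cytoplasm, where DICER1 and its double-stranded RNA-binding partner TARBP2 trim it to a short duplex. An Argonaute protein such as AGO1 or AGO2 keeps a strand of that duplex and uses its seed to find target messenger RNAs. A share of microRNAs leaves the cell in exosomes, and the RNA-binding proteins HNRNPA2B1, YBX1 and SYNCRIP are known for sorting particular microRNAs into these vesicles. The study was concerned with exosomes released by irradiated dying tumor cells, and with the microRNAs miR-194-5p and miR-196b-5p that they carry.

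Some of these genes also hold microRNAs of their own. MIR3618 (chr22:20085746-20085833) and MIR1306 (chr22:20086058-20086142) lie inside DGCR8 on its strand, and MIR3173 (chr14:95137919-95137986) lies inside DICER1 on its strand. In the GENCODE 29 annotation of GRCh38, MIR1306 fell in an exon of 5 of the 10 DGCR8 transcripts and touched coding sequence in 4 of them. MIR3618 fell in an exon of 3 of the 10 and in coding sequence of 0, while MIR3173 fell in an exon of 0 of the 15 DICER1 transcripts and is intronic. The mature sequences, from RefSeq on GRCh38.p14, are shown 5′ to 3′ because they are products of this pathway encoded within its own genes. The capitals mark the seed, bases 2 to 8.
hsa-miR-3618: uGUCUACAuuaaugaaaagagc
hsa-miR-1306-5p: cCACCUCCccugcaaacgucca
hsa-miR-1306-3p: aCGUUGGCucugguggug
hsa-miR-3173-5p: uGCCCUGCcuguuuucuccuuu
hsa-miR-3173-3p: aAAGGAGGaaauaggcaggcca

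The microRNAs with which the study was concerned are shown for comparison with the motifs that the sorting proteins are known to recognise.
hsa-miR-194-5p: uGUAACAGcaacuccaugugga
hsa-miR-196b-5p: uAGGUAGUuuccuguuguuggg

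The 7 seeds all differed from each other. HNRNPA2B1 is known for binding the letters GGAG in microRNAs, and SYNCRIP for binding GGCU. GGAG was found in 372 of the 2370 mature human microRNAs in the RefSeq table (15.7%) and GGCU in 298 (12.6%). Among the sequences above, miR-3173-3p held GGAG and miR-1306-3p held GGCU. Neither motif occurred in miR-194-5p or miR-196b-5p, which says only that these letters are not in those sequences. Messenger RNA libraries hardly capture such short RNAs, though the labels here call the RNA rRNA depleted. The 3 hairpin genes had between 1 and 4 reads per library. MIR3618 and MIR1306 had 1 read in each library, and MIR3173 had 3 and 2 in unirradiated and irradiated SW1990 and 2 and 4 in PANC-1. Differences in the microRNAs themselves were therefore not detectable from so few reads.

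Levels between genes were compared as FPKM as deposited, the number of sequenced fragments divided by transcript length and by library size. The 10 genes formed 3 tiers. The sorting proteins HNRNPA2B1 and YBX1 were the most abundant, at 233 to 345 FPKM and 202 to 325 FPKM over the 4 libraries. SYNCRIP (40.9 to 56.2 FPKM), XPO5 (41.7 to 48.8), AGO2 (32.8 to 45.4) and DROSHA (27.0 to 41.7) made up the middle. DICER1 (15.1 to 27.0 FPKM), DGCR8 (11.4 to 26.6), TARBP2 (13.5 to 20.1) and AGO1 (8.44 to 14.9) were lowest. Within each tier the ranges of neighbours overlapped, so their order was not fixed by these 4 libraries. The lowest DROSHA value and the highest DICER1 value were both 27.0 FPKM, so the lower tiers met, whereas YBX1 stood well above SYNCRIP in every library. For scale, the median gene with at least 1 FPKM stood at 8.84 to 9.37 FPKM, and AGO1 in SW1990 was close to that median.

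Within the Microprocessor, DROSHA was read more than DGCR8 in every library. DROSHA (chr5:31400497-31532196, minus strand) stood at 40.3 FPKM in unirradiated and 41.7 in irradiated SW1990, and at 38.8 and 27.0 in PANC-1. DGCR8 (chr22:20080232-20111877, plus strand) stood at 26.6 and 20.4 FPKM in SW1990 and at 11.4 and 16.0 in PANC-1. Irradiated PANC-1 was thus the low library for DROSHA, and unirradiated PANC-1 the low library for DGCR8. The FPKM of DROSHA divided by that of DGCR8 went from 1.52 to 2.05 with radiation in SW1990 and from 3.41 to 1.68 in PANC-1. The same quotient of raw counts went from 1.23 to 1.88 in SW1990 and from 2.07 to 1.64 in PANC-1. Since both genes are read in the same library, this quotient does not depend on how libraries are scaled.

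Among the Argonautes, AGO2 led in every library. AGO2 is the human Argonaute known for cleaving fully paired targets, and the others act mainly by recruiting decay and repression factors. AGO2 (chr8:140520156-140635619, minus strand) held 64.8% and 64.8% of the summed Argonaute FPKM in unirradiated and irradiated SW1990, against 47.9% and 52.3% in PANC-1. AGO1 (chr1:35869808-35930528, plus strand) held 12.0% and 14.9% in SW1990 and 21.7% and 21.8% in PANC-1. By counts AGO1 held 14.2% and 13.1% of the Argonaute reads in SW1990 and 31.9% and 30.6% in PANC-1, so that only the FPKM share of AGO1 was higher in irradiated SW1990. The sum over AGO1, AGO2, AGO3 and AGO4 was 70.1, 65.1, 68.6 and 62.9 FPKM, but as TMM-scaled CPM, counts divided by the scaled library size, it was lower in SW1990 (604 and 606) than in PANC-1 (765 and 705). AGO3 ranged from 10.1 to 15.7 FPKM and AGO4, the least abundant, from 3.12 to 5.17 FPKM.

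The effect of 10 Gy was taken as the log2 ratio of irradiated to unirradiated counts within each line, after scaling all 4 libraries together by the TMM method, which equalises the bulk of genes. Past a fold of 2 there were 0 of the 10 genes in SW1990, where 9.53% of the 15731 genes tested were past it, and 0 of 10 in PANC-1, where 9.12% of 15159 were. A gene was tested where it had at least 1 FPKM in either library, and all 10 were. At a fold of 1.5 the counts were again 0 and 0, against 20.5% and 21.6% of all genes tested. Large folds are commoner among sparsely read genes. Among genes with a mean count at least that of TARBP2, the lowest of the 10, 2.43% were past a fold of 2 in SW1990 and 2.53% in PANC-1. The size of the log2 ratio had a median of 0.12 over the 10 genes in SW1990 and 0.19 in PANC-1, beside 0.16 and 0.20 over these well-read genes. Since RNA was taken from whole cultures, a lower level in every cell and fewer cells with a high level cannot be told apart.

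In SW1990 the counting interval lay above 0 for 3 of the 10 genes and below 0 for 4, where 27.8% and 20.8% of all genes tested lay above and below. In PANC-1 it lay above 0 for 2 and below 0 for 7, where the shares of all genes tested were 26.0% and 30.5%. An interval excludes 0 more often in well-read genes, of which 36.4% lay above and 25.8% below in SW1990 and 29.6% above and 40.6% below in PANC-1. Scaled by total counts, the SW1990 intervals of DICER1 and SYNCRIP and the PANC-1 interval of XPO5 included 0. Only DROSHA then lay above 0 in SW1990. The median log2 ratio over the 10 was -0.03 in SW1990, beside 0.02 over all genes, and -0.17 in PANC-1, beside -0.02 over all genes. By FPKM the medians of the 10 were -0.11 and -0.06, beside -0.03 and 0.07 over all genes. Under total counts that of PANC-1 was -0.08, beside 0.07 over all genes.

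By TMM-scaled counts, DROSHA gave the largest difference of the 10 genes in SW1990. By FPKM that of HNRNPA2B1 was larger, as it was under total counts (-0.36 against 0.34 for DROSHA). DROSHA had 1958 reads unirradiated and 2548 irradiated in SW1990, and 2279 and 1812 in PANC-1. It was higher by a log2 ratio of 0.40 (interval 0.32 to 0.49, 1.32-fold) in irradiated SW1990 and lower in irradiated PANC-1, at -0.20 (interval -0.29 to -0.11). The FPKM ratio was near 0 in SW1990, at 0.05, and lay at -0.53 in PANC-1. The size of the SW1990 count ratio was above that of 83.8% of well-read genes.

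DGCR8 went the other way in both lines. Its counts were 1587 and 1357 in SW1990 and 1099 and 1108 in PANC-1, from a larger and then a smaller library. The log2 ratio was -0.21 (interval -0.31 to -0.10) in SW1990 and 0.14 (interval 0.02 to 0.26) in PANC-1. The FPKM ratios had the same signs and were larger, at -0.38 and 0.49. DGCR8 shares only 12 bases with TRMT2A on the opposite strand, and the strand setting of the counting was not given in the sources used here.

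XPO5 (chr6:43522330-43576075, minus strand) hardly differed with radiation. Its counts were 3866 and 3801 in SW1990 and 4898 and 4250 in PANC-1. The log2 ratio was 0.00 (interval -0.07 to 0.06) in SW1990 and -0.07 (interval -0.13 to -0.01) in PANC-1, and the PANC-1 sign turned when libraries were scaled by total counts, to 0.02. XPO5 overlaps POLR1C, a polymerase subunit gene on the opposite strand, over 7256 bases. POLR1C had 559, 602, 397 and 523 reads in unirradiated and irradiated SW1990 and unirradiated and irradiated PANC-1. Without a known strand setting, reads of the shared stretch cannot be told apart.

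The cytoplasmic pair DICER1 and TARBP2 also diverged between the lines. DICER1 (chr14:95086228-95158010, minus strand) had 2315 and 2485 reads in SW1990 and 3560 and 2628 in PANC-1. Its log2 ratio was 0.12 (interval 0.04 to 0.21) in SW1990 and -0.31 (interval -0.38 to -0.23) in PANC-1. By FPKM, DICER1 was lower in both irradiated libraries, at -0.16 in SW1990 (20.8 to 18.6 FPKM) and at -0.84 in PANC-1 (27.0 to 15.1 FPKM). By FPKM, DICER1 was the only one of the 10 past a fold of 1.5 in PANC-1, where 23.8% of all genes tested were past it, and 0 of the 10 were in SW1990, where 22.5% were. The antisense gene DICER1-AS1 shares 366 bases with DICER1 and had 63, 59, 29 and 27 reads.

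TARBP2 (chr12:53500921-53506431, plus strand) was the least read of the 10, so its intervals are the widest. It had 397 and 353 reads in SW1990, a log2 ratio of -0.15 whose interval (-0.36 to 0.06) included 0. In PANC-1 it had 486 and 575 reads, a log2 ratio of 0.37 (interval 0.20 to 0.55), and the FPKM ratio was 0.49. TARBP2 and DGCR8 are both double-stranded RNA-binding partners of a nuclease. With TMM scaling they were the only ones of the 10 with a higher count level in irradiated PANC-1. Under total counts XPO5 (0.02) and AGO2 (0.05) were also above 0 there, with intervals that included 0. DICER1 counts divided by TARBP2 counts went from 5.83 to 7.04 in SW1990 and from 7.33 to 4.57 in PANC-1.

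AGO2, like XPO5, differed little with radiation. It had 7334 and 7384 reads in SW1990 and 7431 and 6589 in PANC-1, and both intervals included 0, at a log2 ratio of 0.03 (interval -0.02 to 0.08) and -0.04 (interval -0.09 to 0.00). AGO1 was slightly lower in both irradiated libraries, with 1652 and 1506 reads and a log2 ratio of -0.11 (interval -0.21 to -0.01) in SW1990 and 5228 and 4223 reads and -0.18 (interval -0.24 to -0.12) in PANC-1. By FPKM the SW1990 sign turned, to 0.20. AGO4 was lower in both, at -0.38 (interval -0.58 to -0.19) and -0.37 (interval -0.53 to -0.22). AGO3 stood at 0.08 (interval -0.01 to 0.16) and -0.14 (interval -0.22 to -0.06), and by FPKM at -0.18 and -0.34.

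HNRNPA2B1 and YBX1, the most abundant of the sorting proteins, had lower scaled counts in both irradiated libraries. HNRNPA2B1 (chr7:26189927-26201529, minus strand) had 12411 and 9906 reads in SW1990, a log2 ratio of -0.30 (interval -0.34 to -0.27). In PANC-1 it had 17275 and 14132 reads and a log2 ratio of -0.16 (interval -0.19 to -0.13). The larger difference was thus in SW1990, and FPKM gave -0.46 in SW1990 and -0.04 in PANC-1. CBX3, a chromatin protein gene on the opposite strand that shares 368 bases, had 1291, 1015, 1957 and 1625 reads and so a similar order over the libraries. The part of the shared reads in the HNRNPA2B1 ratios was not tested.

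YBX1 (chr1:42682427-42702349, plus strand), which encodes a cold-shock domain protein, had the larger difference in PANC-1. It had 10574 and 9980 reads in SW1990, a log2 ratio of -0.06 (interval -0.10 to -0.02), and 11110 and 7442 reads in PANC-1, a log2 ratio of -0.45 (interval -0.49 to -0.41). Irradiated PANC-1 was the lowest of the 4 libraries by counts and by FPKM. The FPKM ratios were -0.12 and -0.37. Processed copies of YBX1 are common in the genome, and the 10 YBX1 pseudogenes in the table held 220, 233, 380 and 209 reads, at most 3.42% of the YBX1 count. How reads matching several copies were assigned was not given, which leaves the YBX1 count uncertain.

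SYNCRIP (chr6:85607785-85643792, minus strand) was slightly higher by counts in irradiated SW1990 and lower in irradiated PANC-1. It had 6016 and 6309 reads in SW1990, a log2 ratio of 0.09 (interval 0.04 to 0.14), and 5994 and 4785 in PANC-1, a log2 ratio of -0.19 (interval -0.25 to -0.14). By FPKM both ratios were near 0, at -0.01 and -0.07. A second gene model on the same strand, AL589666.1, shares 7450 bases with SYNCRIP and held 133, 82, 71 and 27 reads.

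The counting intervals of the 2 lines lay on opposite sides of 0 for 4 of the 10 genes, DROSHA, DGCR8, DICER1 and SYNCRIP. Under scaling by total counts only DROSHA and DGCR8 remained, since the SW1990 intervals of DICER1 (-0.02 to 0.15) and SYNCRIP (-0.02 to 0.08) then included 0. With TMM scaling, intervals lay on opposite sides for 13.6% of the 13228 genes tested in both lines and for 18.4% of the 7569 well-read ones. Under total counts these shares were not taken, so the fall from 4 to 2 was not compared with other genes. The SW1990 log2 ratio minus the PANC-1 log2 ratio was 0.60 for DROSHA (interval 0.48 to 0.73) and 0.43 for DICER1 (interval 0.32 to 0.54), the nucleases of the pathway. It was -0.35 for DGCR8 (interval -0.51 to -0.19) and -0.52 for TARBP2 (interval -0.80 to -0.25), their RNA-binding partners. These 4 were set together after their values were seen. HNRNPA2B1, YBX1 and AGO1 had counting intervals below 0 in both lines, and the share of all genes with this was not taken. With 4 libraries and 4 groups no test of these differences was possible. By FPKM, the signs were opposite between lines for DROSHA, DGCR8, XPO5, TARBP2, AGO1 and AGO2, the AGO2 value in PANC-1 being 0.00, and the same for DICER1, HNRNPA2B1, YBX1 and SYNCRIP.

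To ask which genes differed the same way in both lines, the 4 libraries were fitted together with the line as a covariate, so that lines stood in for replicates. By edgeR's quasi-likelihood test 0 of 18180 genes passed an adjusted p of 0.05 for radiation (0.0% called), and 833 had an unadjusted p below 0.05. Of the 10 genes, 0 passed the adjusted limit and 0 had an unadjusted p below 0.05. By DESeq2 39 of the 7254 genes given an adjusted p passed, 0 of them among the 10. TARBP2 was given no adjusted p there. The fit had 1 residual degree of freedom, so a p that misses the limit does not show that these genes stayed level.

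Over all genes, the lines differed more than the treatments. In unirradiated cells 1 of the 10 genes was past a fold of 2, against 42.0% of the 16626 genes tested, and in irradiated cells again 1, against 41.6% of 16819. Among well-read genes 28.5% and 27.4% were past it. The gene was AGO1 in both comparisons. At a fold of 1.5 there were 2 genes in each, AGO1 and DGCR8 in unirradiated cells and AGO1 and TARBP2 in irradiated cells, where 60.4% and 59.9% of all genes tested were past it. The median size of the log2 ratio was 0.17 and 0.46 over the 10 genes, beside 0.58 and 0.56 over well-read genes. For the 10 genes the unirradiated value was close to the 0.19 for radiation in PANC-1, whereas by FPKM it was 0.34 against 0.25 and under total counts 0.27 against 0.11.

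AGO1 had 1652 and 1506 reads in unirradiated and irradiated SW1990 and 5228 and 4223 in PANC-1, so that the lines did not overlap. It was 2.84-fold lower in unirradiated SW1990 than in unirradiated PANC-1, a log2 ratio of -1.50 (interval -1.58 to -1.42), and 2.71-fold lower after radiation, at -1.44 (interval -1.53 to -1.35). By FPKM the differences were smaller, at -0.82 and -0.50, and the irradiated comparison was then short of a fold of 2, as was the unirradiated one. In the fit of 4 libraries with treatment as a covariate, AGO1 was the only one of the 10 to pass, with a log2 fold change of -1.47 and an adjusted p of 0.0025 by edgeR's quasi-likelihood test, where 7921 of 18180 genes passed (43.6%).

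DGCR8 was higher in SW1990 in both comparisons, at a log2 ratio of 0.69 (interval 0.58 to 0.80) unirradiated and 0.34 (interval 0.23 to 0.46) irradiated. Its FPKM ratio was past a fold of 2 in unirradiated cells, at 1.22, and was 0.35 in irradiated cells. By FPKM, DGCR8 was the only one of the 10 past that fold unirradiated, against 43.3% of all genes tested, and 0 of the 10 were past it irradiated, against 42.5%. In the fit of 4 libraries its log2 fold change of 0.52 missed the limit, with an adjusted p of 0.0612 by edgeR. HNRNPA2B1 was lower in SW1990, at -0.32 and -0.46, and its adjusted p of 0.0743 by edgeR also missed. YBX1 (0.09 and 0.47) and SYNCRIP (0.16 and 0.45) were higher in SW1990 in both, and AGO2 was higher by 0.14 and 0.21. None of these 3 passed in the edgeR fit with TMM, while scaled by total counts it called YBX1 (adjusted p = 0.0498), SYNCRIP (adjusted p = 0.0387) and DGCR8 (adjusted p = 0.0416). Under total counts 7970 of 18180 genes passed, 4530 higher in SW1990 and 3440 lower. DESeq2 called HNRNPA2B1 (adjusted p = 0.0138), where 6124 of the 17475 genes given an adjusted p passed. The unirradiated differences depended on the measure, being 0.31 for YBX1 and 0.39 for SYNCRIP both under total counts and by FPKM, for AGO2 0.37 and 0.47, and for HNRNPA2B1 -0.09 under total counts and -0.11 by FPKM.

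With TMM scaling, the interval between lines included 0 in only 1 of the treatments for DROSHA, DICER1 and TARBP2. Intervals between lines were not taken under total counts, and the difference between treatments was not tested. With that scaling DROSHA did not differ beyond counting error in unirradiated cells, at -0.06 (interval -0.15 to 0.03), but stood at 0.17 under total counts. It was higher in irradiated SW1990 by 0.54 (interval 0.45 to 0.63). DICER1 was lower in unirradiated SW1990, at -0.46 (interval -0.54 to -0.39, and -0.24 under total counts), and within counting error in irradiated cells, at -0.03 (interval -0.11 to 0.05). TARBP2 stood at -0.13 (interval -0.33 to 0.06, and 0.09 under total counts) and then at -0.66 (interval -0.85 to -0.46). These comparisons share their libraries with the radiation comparisons, and restate the same 4 values for each gene from the side of the lines. XPO5 was slightly lower in SW1990 by counts, at -0.18 and -0.11, and slightly higher by FPKM, at 0.06 and 0.23.

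Counts and FPKM come from the same reads, yet they gave different ratios for several of the 10 genes. Dividing the read count by library size and by FPKM gives a length in kilobases, the transcript length over which the FPKM spread those reads. Its scale is approximate, so only its differences between libraries are read here. For YBX1 it was nearly constant, between 1.81 and 1.83 kb, and for TARBP2 it lay between 1.38 and 1.45 kb. For AGO1 it was 10.9 and 8.47 kb in unirradiated and irradiated SW1990 and 15.0 and 15.3 kb in PANC-1. AGO1 has a pair of annotated coding transcripts in GENCODE 29, of 3.996 and 13.708 kb. For DICER1 it was 6.20 and 7.26 kb in SW1990 and 5.63 and 8.63 kb in PANC-1, higher in the irradiated library of each line. For DROSHA it was 2.71 and 3.32 kb in SW1990 and 2.50 and 3.33 kb in PANC-1, again higher in both irradiated libraries.

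AGO1, DICER1 and DROSHA were the genes of the 10 with the widest spread of this length as a fold, highest over lowest (1.80, 1.53 and 1.33). The count and FPKM log2 ratios of radiation were over 0.5 apart for 0 of the 10 genes in SW1990 and 1 in PANC-1, DICER1, where 6.76% and 6.62% of all genes tested were that far apart. Between lines they were that far apart for 2 genes unirradiated, AGO1 and DGCR8, and 1 irradiated, AGO1, against 19.9% and 16.8% of all genes. The deposited table holds 1 count and 1 FPKM value per gene and library, and values of single transcripts were not analysed here.

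The partners of the 10 genes were examined as 6 lists of 88 genes in all. Across both lines, 6 of them were past a fold of 1.5 with radiation, 3 in SW1990 and 4 in PANC-1. Of well-read genes 7.8% and 9.6% were past it, so the partners were not past it more often. DCP2, the catalytic subunit of the decapping enzyme that removes the cap of messenger RNAs, had the largest difference. It had 685 and 1580 reads in unirradiated and irradiated SW1990 and 2691 and 1066 in PANC-1, log2 ratios of 1.23 (interval 1.10 to 1.36) and -1.21 (interval -1.31 to -1.10). The lines thus went opposite ways, and FPKM gave the same signs with smaller sizes, at 0.84 and -0.47. In the same list of 18 deadenylation and decay genes, the deadenylase subunit CNOT8 was lower in irradiated PANC-1, at -0.74 (interval -0.92 to -0.56), but its FPKM ratio there was -0.04. The list's scaffold CNOT1 stood at 0.17 in SW1990 and -0.20 in PANC-1, and the poly(A)-binding protein PABPC1 at 0.08 and -0.17. The median of the list was 0.00 in SW1990 and -0.17 in PANC-1, beside 0.02 and -0.02 over all genes.

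Of the 13 nuclear processing partners, NCBP2, the small subunit of the nuclear cap-binding complex, was lower in both irradiated libraries. It had 952 and 587 reads in SW1990, a log2 ratio of -0.68 (interval -0.83 to -0.53), and 2214 and 1521 in PANC-1, a log2 ratio of -0.41 (interval -0.51 to -0.32). The RNA-binding protein HNRNPA1 was lower in both irradiated libraries, at -0.24 in SW1990 and -0.44 in PANC-1. Of the 6 export genes, RAN, the small GTPase whose bound nucleotide sets the direction of transport by Exportin-5, had 7141 and 6089 reads in SW1990 and 9309 and 5384 in PANC-1. Its log2 ratios were -0.21 (interval -0.26 to -0.16) and -0.66 (interval -0.71 to -0.61). RANBP1, which binds RAN, stood at 0.02 and -0.13. RAN thus had a wider difference in PANC-1 than XPO5.

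Of the 16 Dicer and Argonaute partners, 15 were tested and 0 were past a fold of 1.5 in either line. The chaperones HSPA8 and HSP90AB1, which help to load Argonautes, were the most abundant. HSPA8 was higher in both irradiated libraries, at 0.09 in SW1990 and 0.38 in PANC-1, and HSP90AB1 stood at 0.13 and 0.00. Of the 14 genes of precursor and microRNA turnover, TSN, a subunit of the translin complex that acts on small RNAs, was higher in both, at 0.43 (interval 0.29 to 0.57) in SW1990 and 0.62 (interval 0.48 to 0.75) in PANC-1. SND1, a nuclease known for degrading microRNAs, stood at 0.10 and 0.02, and the deadenylase PARN at 0.03 and -0.01.

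The list of 21 other RNA-binding and vesicle-sorting genes bears on HNRNPA2B1, YBX1 and SYNCRIP. In SW1990 19 were tested, 7 higher and 12 lower, with a median of -0.12, and in PANC-1 20 were tested, 7 higher and 13 lower, with a median of -0.13. The counting interval lay above 0 for 7 and below for 9 in SW1990, and for 4 and 12 in PANC-1. Of all genes tested 27.8% lay above and 20.8% below in SW1990, and 26.0% and 30.5% in PANC-1. Of well-read genes 25.8% lay below in SW1990 and 40.6% in PANC-1. MVP, the major vault protein, was the exception in size. It had 547 and 984 reads in SW1990, a log2 ratio of 0.87 (interval 0.72 to 1.02), and 1935 and 2129 in PANC-1, a log2 ratio of 0.27 (interval 0.18 to 0.36). PCBP2, a poly(C)-binding protein, was lower in both lines, at -0.31 and -0.43, as HNRNPA2B1 was. ANXA2, a membrane-binding annexin, stood at 0.05 and -0.22 by counts and at -0.41 and -0.08 by FPKM. By edgeR's quasi-likelihood test in the 4-library fit, 0 of the 86 tested genes of the 6 lists passed the adjusted limit for radiation. An unadjusted p below 0.05 was seen for 8 of them, where 4.58% of all genes had one. DESeq2 also called 0, but gave some of these genes no adjusted p.

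Between lines 41 of the 86 partners passed the edgeR test, where 21.4% of all genes were higher in SW1990 and 22.2% lower. In the nuclear list 5 of 13 were higher in SW1990 and 4 lower, and in the export list 2 of 6 were higher and 0 lower. Of the Dicer and Argonaute partners 5 of 15 were higher and 3 lower. Of the deadenylation and decay genes 7 of 18 were higher and 0 lower, with a median log2 fold change of 0.39. Of the turnover genes 2 of 13 were higher and 2 lower, and of the other sorting genes 4 of 21 were higher and 7 lower.

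The labelled cell type was checked against markers of pancreatic duct epithelium, the tissue these cancers resemble. In SW1990 7 of 7 markers reached 1 FPKM in both libraries, led by KRT8 at 1352 and 1888 FPKM. In PANC-1 6 of 7 did so unirradiated and 7 of 7 irradiated, again led by KRT8 at 786 and 851 FPKM, and CDH1, which encodes E-cadherin, stood at 0.673 and 1.21 FPKM. EPCAM, an epithelial adhesion gene, stood at 2.28 and 2.81 FPKM in PANC-1 against 217 and 218 in SW1990. The summed FPKM of the list was 2885 and 3723 in SW1990 and 1416 and 1653 in PANC-1, higher in the irradiated library of each line. In SW1990 7 of 7 were higher after radiation and in PANC-1 6 of 7, the exception being KRT7, with 145 and 97 reads there and 99 and 102 in SW1990. The counting interval lay above 0 for 6 of 7 in SW1990 and 4 of 7 in PANC-1, and below 0 for 0 and 1. Of all genes tested 27.8% and 26.0% lay above, and 20.8% and 30.5% below. KRT18 had log2 ratios of 0.29 and 0.08, KRT19 of 0.51 and 0.64, and MUC1 of 0.62 and 0.69. The level of these markers thus differed with treatment and with line, and its part in the results above was not tested.

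Of 12 markers of acinar, endocrine, fibroblast, endothelial and blood cells, 8 and 5 were at 0 reads in unirradiated and irradiated SW1990 and 8 and 8 in PANC-1. CPA1, INS, GCG and DCN were at 0 reads in every library. The summed FPKM of this list was 2.92 and 4.55 in SW1990, led by COL1A1, and 28.1 and 25.6 in PANC-1, led by CD68 at 18.8 and 13.9 FPKM. COL1A1 had log2 ratios with radiation of 0.70 (interval 0.34 to 1.07) in SW1990 and 0.58 (interval 0.46 to 0.70) in PANC-1. PTPRC, the defining leukocyte gene, had 0, 2, 0 and 0 reads. Of the endothelial genes, PECAM1 had 0, 2, 0 and 0 reads and VWF 14, 50, 2 and 4, at most 0.296 FPKM.

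The promoters of the 10 genes were also compared with others, as a feature the choice of genes did not use. RefSeq promoter windows on GRCh38.p14, from 250 bases before to 50 bases after the start, matched 9 of the 10 by symbol, 15 windows in all. Their GC content had a median of 63.0%, beside 58.7% over all 35116 windows, and they held a median of 28 CpG pairs against 14. DICER1 and TARBP2 had several windows each. The letters CCAAT, on either strand, stood in 9 of the 15 windows, from 7 of the 9 genes, and in 34.6% of all windows. The letters GGGCGG, the core of a GC box, stood in 11 of the 15 and in 45.0% of all windows. The DGCR8 window was the richest of the 15, at 80.3% GC and 57 CpG pairs. These matches are a description of the letters and not of binding.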

How the data were processed

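The libraries were made from Trizol-extracted RNA with a messenger RNA kit, while the labels describe the RNA as rRNA depleted. The count and FPKM values per gene were deposited by the authors in a single table. The submitters' processing notes name CASAVA 1.8, FastQC 0.11.2, Trimmomatic 0.36, HISAT2 2.0, StringTie 1.3.3b, DESeq2 1.12.4 and the GRCh38 build, without their roles. Which tool made the counts and whether it used strand are not given in the sources used here. Coordinates match GENCODE 29 for 9 of the 10 genes, HNRNPA2B1 being the exception.

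The 10 genes and the lists of partners and markers were chosen with earlier results of these data known. Rows without a gene name held 0.453% to 0.635% of the reads and were left out of the tests. Counts were scaled by TMM (edgeR 4.0.16, R 4.3.3) over the 4 libraries, and log2 ratios were taken from scaled counts, a value of 0 being set to 0.01. A gene was tested where FPKM reached 1 in either library of a pair. With 1 library per group no pair was tested, and genes past a fold of 2 were counted, after the study's fold limit. The intervals of differences between lines combine those of the 2 ratios. The 4-library fits used edgeR's quasi-likelihood test with Benjamini-Hochberg adjustment over all genes and an adjusted p limit of 0.05. Alternatives were total counts, DESeq2 1.42.0 (size factors and Wald test), FPKM, no filter, a fold of 1.5, a read test at a q limit of 0.001, fits without the covariate, leaving out each library, keeping unnamed rows and, chosen after seeing the data, TMM over each pair.

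All 10 genes are named, with AGO3, AGO4, overlapping genes and pseudogenes, and from each list up to 4 genes past a fold of 1.5 with radiation and the 2 of highest mean FPKM. Genes named among the markers beyond these were chosen after their values were seen. Older symbols were matched by name tables. A gene that this rule selects is not reported here.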

Additional observations from a re-analysis of the deposited data

Results flagged for a closer look

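The radiation response of 4 of the 10 genes pointed opposite ways in the lines, with counting intervals on opposite sides of 0, as did 13.6% of all genes tested in both lines and 18.4% of well-read ones. The log2 ratio in SW1990 minus that in PANC-1 was 0.60 for DROSHA, -0.35 for DGCR8, 0.43 for DICER1 and 0.28 for SYNCRIP. Each line had 1 library per treatment, so these differences were not tested. Under scaling by total counts the SW1990 intervals of DICER1 and SYNCRIP included 0, and 2 genes remained. The shares over all genes given above are for TMM scaling and were not taken under total counts. By FPKM the differences were 0.58 for DROSHA, -0.87 for DGCR8, 0.67 for DICER1 and 0.06 for SYNCRIP. The FPKM ratios of DICER1 (-0.16 in SW1990 and -0.84 in PANC-1) and SYNCRIP (-0.01 and -0.07) were below 0 in both lines.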

How the results depend on the processing

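The number of the 10 genes past the fold limit with radiation was 0 in both lines under every scaling, FPKM, no filter, a fold of 1.5 and the read test. The number of all genes past it moved, from 1499 in SW1990 to 7924 without a filter, 3231 at a fold of 1.5 and 670 with the read test, and from 1383 in PANC-1 to 7915, 3278 and 723. Between lines it moved from 6980 to 15061 (unirradiated) and from 6996 to 15334 (irradiated) without a filter, where a single read against 0 passes. At a fold of 1.5 there were 2 of the 10 genes in each line comparison in place of 1, and by FPKM 0 in the irradiated one. For radiation DESeq2 called 39 of the 7254 genes given an adjusted p, in place of 0. For the line, DESeq2 called 2 of the 10 in place of 1 (HNRNPA2B1 added, adjusted p = 0.0138), total counts 4 (DGCR8, YBX1 and SYNCRIP added) and the fit without treatment 2 (DGCR8 added). Over all genes DESeq2 called 6124 of the 17475 given an adjusted p. Total counts called 7970 of 18180 and the fit without treatment 8392 of 18180. The fits leaving out each library in turn also had no treatment term, and 1 line then had a single library. In them the AGO1 log2 fold change lay between -1.52 and -1.37.

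Scaling by total counts moved the median of all genes between unirradiated lines from -0.02 to 0.20. Relative to the values given above, it turned the sign of AGO2 with radiation in both lines (to -0.03 in SW1990 and 0.05 in PANC-1), of XPO5 in PANC-1 (to 0.02), of DROSHA (to 0.17), XPO5 (to 0.04) and TARBP2 (to 0.09) between unirradiated lines, and of DICER1 (to 0.05) between irradiated lines. In PANC-1 it brought the radiation ratios of DROSHA, AGO1, HNRNPA2B1 and SYNCRIP nearer 0 (to -0.11, -0.09, -0.07 and -0.11). There it moved DGCR8 and TARBP2 further from 0 (to 0.23 and 0.46). In SW1990 it moved DICER1 to 0.07, SYNCRIP to 0.03, YBX1 to -0.12 and HNRNPA2B1 to -0.36. It lowered the number of genes whose intervals lay on opposite sides of 0 in the lines from 4 to 2 (DROSHA and DGCR8), and the other scalings kept 4. FPKM turned the sign of DICER1, AGO1, XPO5, AGO2 and SYNCRIP with radiation in SW1990 (to -0.16, 0.20, 0.12, -0.11 and -0.01), of AGO2 in PANC-1 (to 0.00), of DROSHA, XPO5 and TARBP2 between unirradiated lines (to 0.05, 0.06 and 0.17) and of XPO5 and DICER1 between irradiated lines (to 0.23 and 0.30). The labels carry no replicate numbers, so no fit by replicate number was made, and the radiation fit pairs libraries only within a line. The spread between cultures was not measured by these libraries.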
